A study of Drosophila melanogaster with 3 samples.

Results

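Of the 3811 reproducible summits of Senseless-GFP, 553 (14.5%, exact 95% interval 13.4 to 15.7) lay in an intron, 501 to 2000 bp from the nearest annotated transcript start. They were chosen by position alone, on the dm6 build with the Ensembl annotation: inside a gene, in no exon of any transcript, and within that range of distances from a start of any gene. A summit is the point of strongest signal that the authors' peak caller gave for a peak. The list is the authors' set of peaks past their irreproducible discovery rate (IDR) threshold. The rest of that list comprised 1855 summits within 500 bp of a start, 793 in introns over 2000 bp from any start, 528 between genes and 82 in other exons. With the RefSeq annotation the rule also found 553 summits, of which 552 were the same.

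The single group of the series was made of 3 biological replicates of whole Drosophila melanogaster embryos, of mixed sex at 4 to 14 hours of age, from a transgenic line that stably expresses sens with GFP at its C-terminus. Chromatin was sonicated to 200 to 800 bp and the fusion protein was pulled down with an antibody against GFP. Whole embryos mix all cell types, so a peak does not say in which cells the protein was bound. No untreated or wild-type group was among the samples, and no control is listed among the inputs of the dm6 lists in the deposited text notes. The depth of each library is unknown.

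Senseless is a zinc finger transcription factor of sensory organ precursors and of the embryonic salivary gland, known to repress genes through its DNA sites and to act with proneural proteins as a co-activator. Introns of fly genes, and first introns above all, often hold enhancers and alternative promoters. An intronic peak can therefore lie downstream of the first start of its host gene, upstream of an internal start of the same gene, or beside the start of another gene nested in or overlapping the intron.

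The windows of 50 bases to each side of the strongest of these summits, shown to let a reader see what the sequence under a strong peak looks like, were mostly rich in A and T. Capitals mark runs of 8 or more A or T. All windows are printed 5′ to 3′ on the plus strand of dm6, from the RefSeq sequence, with the summit as the middle base. The 6 windows belong to 6 of the 7 strongest of these summits. They lie at chr2L:481007-481107 (ush), chr2L:6612661-6612761 (CG11050), chr3R:11761023-11761123 (Lk6), chr3R:5215484-5215584 (cno), chr2L:3302134-3302234 (CG9663) and chrX:4910317-4910417 (CG32772).
ush: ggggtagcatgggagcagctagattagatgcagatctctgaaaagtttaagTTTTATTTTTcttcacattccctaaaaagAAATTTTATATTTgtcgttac
CG11050: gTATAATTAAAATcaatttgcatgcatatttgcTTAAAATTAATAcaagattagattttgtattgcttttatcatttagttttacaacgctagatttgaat
Lk6: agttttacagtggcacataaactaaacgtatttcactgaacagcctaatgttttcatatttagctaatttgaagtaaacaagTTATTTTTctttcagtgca
cno: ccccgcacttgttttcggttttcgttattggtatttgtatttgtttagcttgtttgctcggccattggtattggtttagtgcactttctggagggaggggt
CG9663: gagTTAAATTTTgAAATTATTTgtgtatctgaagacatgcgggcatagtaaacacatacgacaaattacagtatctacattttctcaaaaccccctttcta
CG32772: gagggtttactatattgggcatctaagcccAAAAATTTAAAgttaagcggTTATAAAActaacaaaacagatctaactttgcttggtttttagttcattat
The longest run was 13 bases, in the window of ush, and cno had no run of 8 bases at all. GC content ranged from 21.8% (CG11050) to 44.6% (cno).

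Further down, 3 strong windows that held AAATCA, the core of the Senseless site, on either strand are shown with that core in capitals (TGATTT where it lies on the minus strand). They lie at chr2L:19165112-19165212 (brat), chr3L:4228303-4228403 (ImpL2) and chr3L:14785032-14785132 (bmm).
brat: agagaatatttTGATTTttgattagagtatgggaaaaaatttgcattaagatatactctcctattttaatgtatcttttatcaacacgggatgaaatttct
ImpL2: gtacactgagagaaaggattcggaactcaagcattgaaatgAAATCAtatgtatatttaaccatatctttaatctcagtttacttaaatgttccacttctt
bmm: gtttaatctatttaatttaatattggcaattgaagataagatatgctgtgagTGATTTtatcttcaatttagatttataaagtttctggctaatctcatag
The core began 2 bp right of the summit at bmm, 9 bp left of it at ImpL2 and 39 bp left at brat. Of the 6 windows printed first, only that of CG11050 held the core, 41 bp left of the summit.

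The strongest of these summits ranked high in every replicate. Their selection favours this, as the list keeps reproducible peaks and was made from the same replicates, pooled. The strongest of the whole reproducible list lay in the first intron of ush, which encodes a zinc finger cofactor of the GATA factor Pannier, with the closest start, that of cbt, 1369 bp further on. The gene cbt encodes a zinc finger transcription factor. The summit ranked 1, 1 and 3 in replicates 1, 2 and 3. The summit of CG11050 ranked 3, 3 and 9, and lay in a second intron of 140 bp. That of Lk6, which encodes a kinase of the translation factor eIF4E, ranked 11, 9 and 8. The summit of cno, the gene of a junction protein, ranked 8, 13 and 12. In the overlapping genes HmgZ and HmgD, which encode HMG-box chromatin proteins, the strongest summit ranked 13, 14 and 11. Thus 5 of the 20 strongest reproducible summits were of this kind, and 21 of the 100 strongest (21%, exact 95% interval 13.5 to 30.3), an interval that holds the 14.5% of the whole list.

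The summit of CG9663 ranked 24, 26 and 20, and another reproducible summit lay 201 bp away. CG32772 ranked 43, 25 and 28. CG31635 ranked 28, 49 and 49, and CG3726 ranked 50, 51 and 47. At Trl, which encodes the GAGA factor, the ranks were 35, 48 and 68. At for, the gene of a cGMP-dependent kinase, they were 67, 47 and 64. Up to this point each summit was in the first 68 of all 3 lists. The spread grew below it: Adf1, the gene of an activator of Adh, ranked 141, 85 and 26. LPCAT, which encodes a lysophospholipid acyltransferase, ranked 140, 79 and 42, and Zw, the gene of glucose-6-phosphate dehydrogenase, ranked 134, 71 and 63. At chif, which encodes the regulatory subunit of a replication kinase, the order was opposite, with ranks of 34, 86 and 136.

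The remaining summits of the strongest 20 lay in NFAT, mub, Reph, brat and InR, with ranks between 48 and 116 over the 3 replicates. NFAT is the fly homologue of the calcium-responsive factors of that name, mub encodes an RNA-binding protein, brat a translational repressor that limits neuroblast growth, and InR the insulin receptor. The nearest start belonged to a host gene at 18 of the 20, beside 472 of all 553 (85.4%) and 71.1% of the bases that met the rule. The exceptions among the 20 were ush, with cbt, and Zw, with the antisense RNA asRNA:CR44512.

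**Figure D1:**
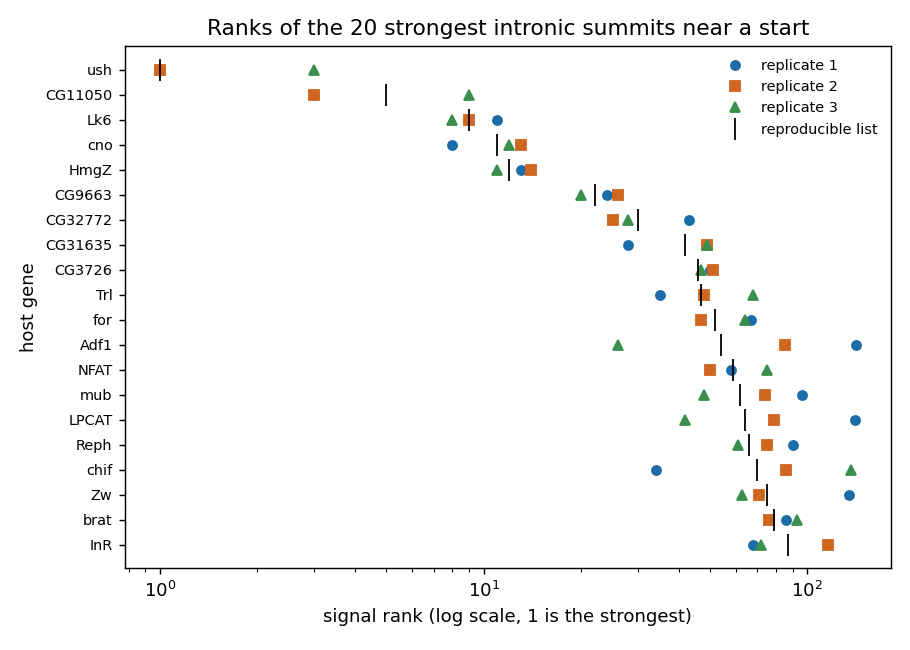
Signal rank (log scale, 1 is the strongest peak) of the 20 strongest intronic summits near a start, by host gene, in each of 3 replicates (symbols) and in the reproducible list (bar). All replicate ranks lie between 1 and 141, and they lie farthest apart at Adf1, LPCAT and chif.

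Over all 553 summits, the signal value, a score of the authors on an unstated scale, ran from 139.95 to 3051 with a median of 229.7. The median rank in the reproducible list was 1755, with quartiles of 888 and 2864, beside 1940 for intronic summits farther from a start, 1881 for summits within 500 bp of a start and 1906 for the whole list. Their share of the list was 15.4%, 16.1%, 12% and 14.6% from the strongest to the weakest of 4 equal groups by signal. In the pooled list of 28357 peaks the share was 13.9% over ranks 3812 to 7622, 14.2% over 7623 to 15244 and 13.0% below that. The share thus differed little between strong and weak peaks.

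In each replicate's own list, the matching peaks ranked higher than those of intronic summits farther out. The median rank was 1788, 1709 and 1743 in replicates 1, 2 and 3 for the 553, and 2056, 1969 and 2004.5 for the summits farther out. The difference was −268, −260 and −261.5 ranks, the same way in 3 of 3 replicates (exact sign-flip permutation test, two-sided, p = 0.25, the smallest that 3 replicates allow). Against summits within 500 bp of a start the difference was −1, −114 and −132 ranks (exact two-sided p = 0.25), and in replicate 1 it was thus close to 0.

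All 3 replicates had the summit inside one of their 3811 strongest peaks at 357 of the 553 (64.6%, exact 95% interval 60.4 to 68.5), beside 64.3% of all reproducible summits. The share was 64.2% for intronic summits farther out and 64.3% within 500 bp of a start, all close to each other. A further 134 were among the strongest of 2 replicates and 61 of a single replicate. The remaining summit, in lncRNA:CR42651, ranked 4789, 3837 and 4652, past the limit of 3811 in each. In the full lists, 547 of the 553 had a peak in all 3 replicates. Over those 547, the Spearman correlation between the ranks of a pair of replicates was 0.75 ± 0.02 (SD, 3 pairs that share replicates), beside 0.69 ± 0.03 for intronic summits farther out and 0.72 ± 0.03 near starts. These correlations are across summits of the same libraries and carry no test. The least favourable rank of a summit was at the median 1.91 times its best.

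The density of summits fell with distance from a start. Of the 133.9 Mb of the 6 chromosome arms, 11.4 Mb (8.54%) met the positional rule, and held 48.4 reproducible summits per Mb (exact Poisson 95% interval 44.4 to 52.6, counting error only). Intron sequence over 2000 bp from any start held 19.2 per Mb (17.8 to 20.5), a ratio of 2.53. In the 3811 strongest peaks of each replicate by itself the ratio was 2.54 ± 0.076 (SD, n = 3), from 541, 550 and 544 summits that met the rule (14.3% ± 0.12 of each list). The arms 2L, 2R, 3L, 3R, 4 and X held 87, 103, 107, 121, 0 and 135 of the 553. These counts are not scaled by the eligible bases of each arm and do not compare the arms.

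In bins of 250 bp, the density was 66.4 per Mb at 501 to 750 bp (56.2 to 77.8), 51.5 at 751 to 1000 bp, 47.0 at the next 250 bp, 41.9 at 1251 to 1500 bp, 33.8 at 1501 to 1750 bp and 42.8 at 1751 to 2000 bp (33.1 to 54.3). At 2001 to 2250 bp it was 28.7 (20.7 to 38.8). The intervals of the first and last bins inside the limits do not overlap, while neighbouring bins overlap throughout. The intervals on either side of the upper limit overlap as well. Just inside the lower limit COX7AL2, RhoGAP18B and wkd (502 to 510 bp) ranked 2174, 2898 and 3081, and just outside it omd, egr and CG5171 (498 to 499 bp) ranked 1471, 908 and 2557. At the upper limit NFAT, CG46310 and coro (1995 to 1999 bp) ranked 1911, 3744 and 2542, and Dys, lncRNA:CR44320 and CG43658 (2007 to 2013 bp) ranked 1940, 179 and 1844. The median distance of the 553 was 1043 bp, with quartiles of 735 and 1450 bp.

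**Figure D2:**
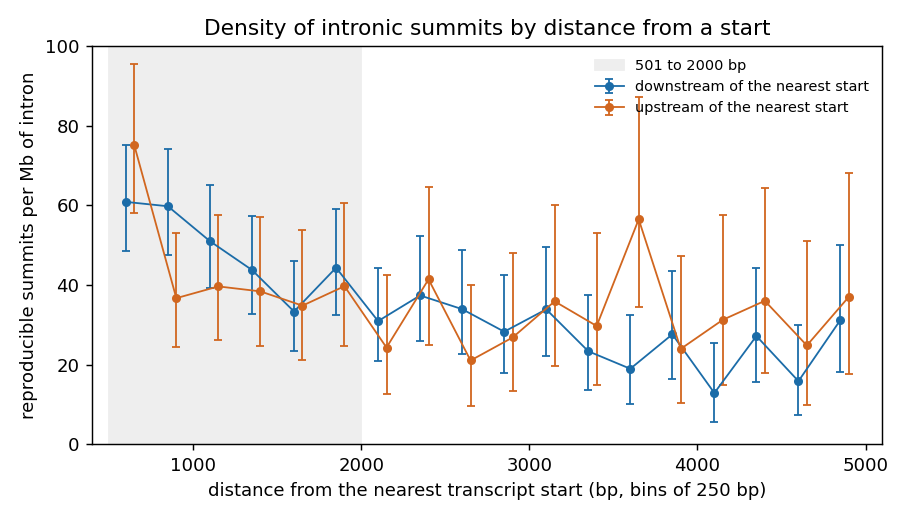
Reproducible summits per Mb of intron sequence (vertical axis) against distance from the nearest transcript start (bp, bins of 250 bp), downstream and upstream of that start; bars are exact Poisson 95% intervals and the shaded range is 501 to 2000 bp. Upstream of a start the density is 75.1 per Mb at 501 to 750 bp and 36.7 at 751 to 1000 bp, and downstream it is 60.9 and 59.8.

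Most of these summits lay in a first intron. This was so for 468 of the 553 (84.6%, exact 95% interval 81.3 to 87.5), where first introns made up 64.5% of the bases that met the rule. The density was 63.5 per Mb in first introns (57.9 to 69.5) and 20.9 in later ones (16.7 to 25.9). In the replicates' own lists 83.2% ± 1.1 (SD, n = 3) lay in a first intron. A summit counts as in a first intron where any transcript of a host has its first intron there. The lowest intron number was 2 for 57 summits, 3 for 11 and 4 or more for 17. Among summits farther from a start, 60.5% were in first introns, against 37.6% of the bases, so a surplus over the bases was present there too. The share was higher near a start by 23.6, 22.3 and 20.6 percentage points in the 3 replicates (exact sign-flip permutation test, two-sided, p = 0.25, the smallest possible), and the shares of eligible bases differ in the same direction, 64.5% against 37.6%. The median rank in the list was 1768 in first introns and 1573 in later ones.

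**Figure D3:**
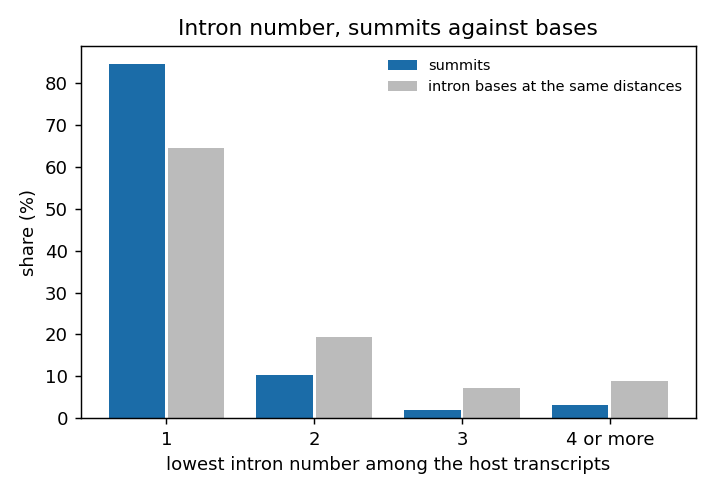
Share (%) of the 553 summits and of the intron bases at 501 to 2000 bp from a start, by the lowest intron number among the transcripts of the host genes. Intron 1 holds 84.6% of the summits and 64.5% of the bases; each later number holds a lower share of summits than of bases.

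By their place relative to starts, the summits fell into 3 kinds. The first kind, 342 summits (61.8%), lay downstream of a start of a host gene, 321 of them in a first intron. The second kind, 130 summits (23.5%), lay upstream of an internal start of a host gene, inside the intron of a longer transcript, as at Lk6, HmgZ, NFAT, Reph, chif, brat and InR. The third kind, 81 summits (14.6%), had the start of another gene nearest, as at ush and Zw. This sorting was made after the values were seen.

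Density differed between the 3 kinds. Sequence upstream of a host's internal start held 68.6 summits per Mb (57.3 to 81.4), sequence downstream of a host's start 54.9 (49.2 to 61.0), and sequence whose nearest start belonged to another gene 24.5 (19.5 to 30.5). The intervals of the first pair overlap, and neither overlaps that of the last. In other words, 28.9% of the bases but 14.6% of the summits were of the last kind. Bases were sampled every 20 bp for these shares. Signal was also stronger upstream of internal starts, with a median rank of 1434.5 beside 1843 downstream of a host's start and 1767 for the third kind. In the replicates' own ranks the medians upstream of internal starts were 1593.5, 1375 and 1529, and those downstream of a host's start 1844, 1858 and 1799.5. All 3 replicates had the same order, with differences of −250.5, −483 and −270.5 ranks (exact sign-flip permutation test, two-sided, p = 0.25, the smallest possible). Of the 50 strongest of the 553, 18 were upstream of an internal start, 25 downstream of a host's start and 7 nearest to another gene.

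Among the 81 with another gene nearest, that gene was protein-coding at 42, a non-coding RNA at 27, a tRNA at 6, a snoRNA at 5 and a pseudogene at 1. It lay wholly inside a host gene at 66, and 56 of the 81 summits were upstream of its start. A host gene is thus not always the gene whose start is near. None of these counts has a share of eligible bases beside it, so they describe the 81 summits only.

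At 120 of the 553 summits (21.7%, exact 95% interval 18.3 to 25.4) the nearest start had a reproducible summit of its own within 500 bp, which was so for 10.5% of the eligible bases. The density near such starts was 100 per Mb (82.9 to 119.6), and near starts without a summit 42.3 (38.4 to 46.5). These 120 ranked higher, with a median rank of 1442.5 beside 1789. In replicates 1, 2 and 3 the difference of medians was −114.5, −488 and −184 ranks (exact two-sided sign-flip p = 0.25). It was most uneven over replicates in this comparison, with replicate 2 far from the others. The next reproducible summit of any kind lay at a median of 3025 bp, and within 500 bp for 8.86% of the members, where fragments of up to 800 bp could belong to both peaks.

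The 553 summits lay in 498 host genes, 479 of them protein-coding, which is 5.32% of the 9005 protein-coding genes with any base that met the rule. Hosts were long genes, with a median length of 15090 bp beside 3509 bp, and a median of 3435 eligible bases beside 387. Of the protein-coding hosts, 407 held 1 summit, 52 held 2 and 20 held 3 or more. At 54 summits (9.76%) several genes overlapped the position.

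The protein-coding gene with most was CG1677 on X, with 8 summits that all lay in the overlapping lncRNA:CR44357 too. None of the 8 was nearest to a start of either. They were instead nearest to starts of brk, unc-119, CBP and Dok, genes nested in the long intron and named here after the values were seen; brk encodes a repressor of targets of the BMP ligand Dpp. The strongest of them, 1028 bp upstream of CBP, ranked 471, 320 and 406. The 3 summits inside kirre, the gene of an adhesion protein of muscle founder cells, were likewise never nearest to a start of kirre.

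NFAT held 6 summits, each nearest to its own starts. The first 2 ranked 58, 50 and 75, and 350, 424 and 379, and lay 762 bp apart upstream of an internal start. The other 4 were weaker, at list ranks 1911 to 3792, and each of these was outside the 3811 strongest in at least 1 replicate. Svil, the gene of a supervillin-like actin-binding protein, held 5 at list ranks 1025 to 2849. CHES-1-like (a forkhead factor), Shrm (an actin-binding regulator of cell shape) and shn (a zinc finger cofactor in BMP signalling) held 4 each. The strongest of these stood at list ranks 252, 848 and 851. Another 14 protein-coding genes held 3 each: CG10543, CG46310, CG9837, Doa, Dys, HmgZ, Irk1, Rgl, RhoGAP18B, Src64B, Tlk, Trl, kirre and psq. CG46310 and Irk1 overlap, and so share summits.

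Shares of hosts differed between gene lists, and most lists stood above the 5.32% of all protein-coding genes, among which hosts were the longer genes. The lists had been chosen with earlier results of these data known and are described by counts only. Of 20 genes of the EGFR and Ras-MAPK pathway with eligible bases, 8 were hosts (40%, exact 95% interval 19.1 to 63.9). They held 140.8 summits per Mb of eligible sequence, beside 49.1 for all protein-coding genes, so the count was also higher per base. The strongest were in S, which encodes a trafficking factor of the ligand Spitz (ranks 213, 119 and 70), in edl, the gene of an inhibitor of the ETS factor Yan (209, 293 and 409), in drk, which encodes an adapter downstream of receptor kinases (393, 325 and 226), and in Krn, a ligand gene (413, 790 and 627). The summit in drk was nearest to the start of mars. The 4 other hosts of the pathway stood at list ranks 1320 to 2821.

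Of 31 genes of the Wnt, Hedgehog and BMP pathways, 8 were hosts (25.8%) with 101.7 summits per Mb. The strongest was in Mad, which encodes the transcription factor of BMP signalling, with ranks of 115, 138 and 65, followed by the receptor genes put, fz3 and tkv at list ranks 801, 1632 and 2019. Of 28 protein kinases of growth and stress signalling, 6 were hosts (21.4%), with 118.0 summits per Mb. These included, after Lk6 and InR, Src64B, a Src-family kinase gene with ranks of 537, 499 and 360, and Mekk1 at list rank 1251. Of 14 genes in the list named zinc finger and bHLH-PAS regulators of signal response, 3 were hosts (Mad again, crp and shn), with 118.3 summits per Mb. The name of that list is loose and does not give the protein class of each host.

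Among 28 chromatin and transcription cofactor genes, 7 were hosts (25%), with 12 different summits. HmgD and HmgZ share summits, Trl held 3, and ph-p, a Polycomb gene, ranked 744, 454 and 1283. Counted once per host, the density was 272.6 per Mb over only 0.051 Mb. Of 25 actin regulators, 7 were hosts (28%, 68.8 per Mb). They were led by tsr, the cofilin gene (805, 419 and 509), jar, a myosin gene (469, 557 and 569), shot, a spectraplakin gene (1027, 880 and 1020), and Moe, the moesin gene (1806, 1156 and 1392).

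Hosts were also 4 of 15 transcription factors of the ecdysone cascade (26.7%: br, EcR, Hr4 and kay, list ranks 1119 to 2314), 5 of 25 junction and polarity genes (20%: cno, kirre, crb and dlg1 the strongest) and 6 of 28 mesoderm and muscle genes (21.4%: Alh, mbc, kirre and rhea the strongest). Per Mb of eligible sequence these lists held 50.6, 53.5 and 68.3 summits, beside the 49.1 of all genes, so that the ecdysone and junction lists stood close to it. Of 32 genes of neuronal differentiation and axon guidance, 4 were hosts (12.5%: fra, NetB, Ten-a and elav), with 21.5 summits per Mb, below that of all genes. Hosts were 1 of 9 cell death genes (Diap1, the caspase inhibitor gene, at ranks 375, 392 and 320), 1 of 17 Notch pathway genes (neur) and 1 of 31 homeobox genes of the body axis (Ubx, list rank 2810). These shares were 11.1%, 5.88% and 3.23%, and the lists held 72.0, 16.9 and 13.0 summits per Mb, each from a single summit.

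Senseless is known for its roles in sensory organ precursors and the salivary gland. Of 15 sensory organ precursor genes, 3 were hosts (20%, exact 95% interval 4.33 to 48.1), with 80.9 summits per Mb from 4 summits, and the interval includes the 5.32% of all genes. The hosts were ush, neur, which encodes the ubiquitin ligase of Delta (1246, 930 and 1211), and pros, the gene of a homeodomain factor (1940, 2267 and 10930). Replicate 3 thus placed the summit in pros far below the others. None of 14 salivary gland genes (exact upper limit 23.2%) and none of 19 cytosolic ribosomal protein genes (upper limit 17.6%) was a host; the ribosomal genes offered only 0.0036 Mb. At these sizes a share of 5.32% could not be told from 0.

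**Figure D4:**
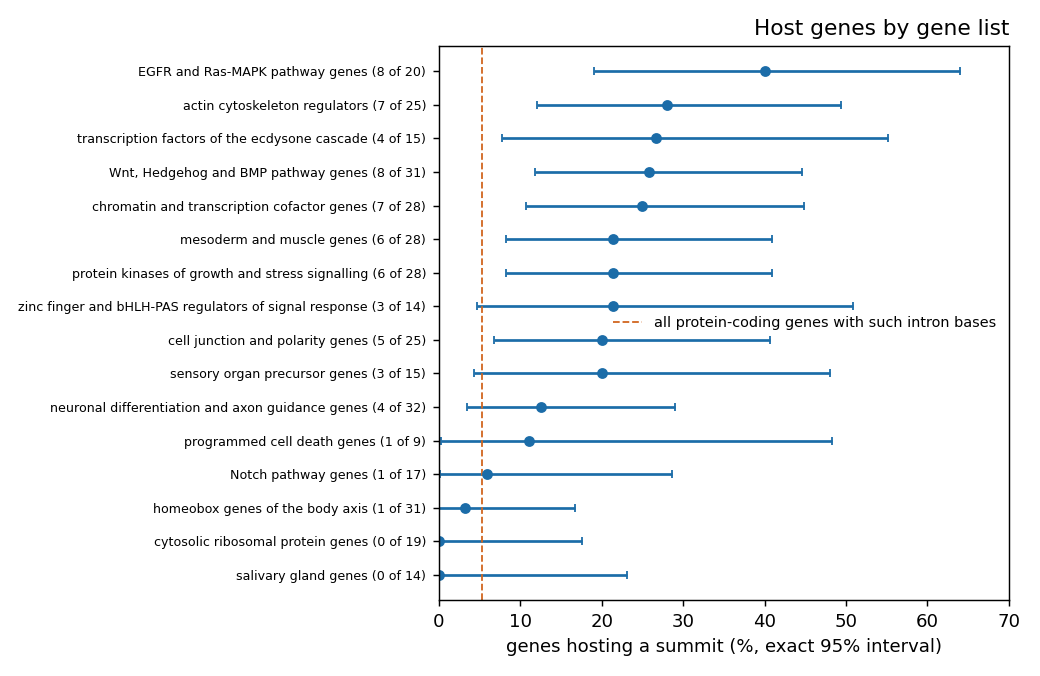
Share (%) of the genes of each list that host a reproducible intronic summit 501 to 2000 bp from a start, among genes with eligible intron bases; bars are exact 95% intervals and the dashed line is the 5.32% of all protein-coding genes. EGFR and Ras-MAPK genes stand at 40%, and salivary gland and ribosomal protein genes at 0.

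Around the summit the sequence was poor in G and C. Mean GC content was 32.9% within 50 bp of the summit and 42.1% in flanking windows of the same length 500 bp away, and it was lower at the summit than in the flanks at 444 of 553 (80.3%). In the 3 replicates' own lists the difference was −8.17, −9.67 and −7.92 percentage points (exact sign-flip permutation test, two-sided, p = 0.25, the smallest possible). Windows of the same length tiled over the eligible sequence had 39.0% GC, so the flanks were above, and the summits below, that sequence. The flanks themselves did not have to meet the positional rule. Some flanks reach exons. Flanks whose middle and ends all lay in intron had 40.6%, over the 507 members with any such flank. Intronic summits farther out had 33.2% at the summit and 41.7% in the flanks, and summits within 500 bp of a start 35.1% and 45.2%. The GC profiles of both intronic groups nearly coincide. Whether base composition affected recovery of the fragments was not tested.

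Runs of 8 or more A or T, marked in the windows above, were present in 428 of the 553 (77.4%), in 53.3% of the flanks, in 61.6% of the tiles and in 75.5% of the windows of all reproducible summits. The share was thus close to that of the list as a whole.

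The core AAATCA, searched on both strands, was in 87 of the 553 windows (15.7%, exact 95% interval 12.8 to 19.0), beside 10% of the flanks, 13.0% of the 98571 tiles and 14.2% of the windows of all reproducible summits. The difference from the flanks was 7.30, 3.82 and 4.96 percentage points in the replicates' own lists (exact sign-flip permutation test, two-sided, p = 0.25, the smallest possible). The interval includes the share of the tiles, so a surplus over intron sequence of the same kind was not detectable with 553 windows. When all 2080 pairs of a 6-base word and its reverse complement were ordered by their gain over the flanks on the 190 members on 2L, 2R and 4, AAATCA came 279th. The top place was taken by AAATAT, in 32.6% of the windows and 13.9% of the flanks there, and in 33.3% and 17.9% at the 363 members on 3L, 3R and X. AAATCA itself was in 15.3% of windows and 12.6% of flanks on 2L, 2R and 4, and in 16.0% and 8.68% on the held-out arms.

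Other words were searched in the same windows. The homeodomain core TAATTA was in 9.95% of the windows and 6.78% of the flanks, beside 9.32% of all reproducible windows and 8.36% of tiles. The E-box CANNTG, the site class of proneural bHLH proteins, was less common at the summit than in the flanks (35.3% and 41.8%, beside 35.3% of all reproducible windows and 40.1% of tiles). The GAGA word GAGAG was in 11% of the windows and 17.9% of the flanks, beside 10.2%. All were searched on both strands. AAATCA read on the other strand, TGATTT, does not contain any of these words, but neighbouring matches can share bases. The flank comparisons of these words, and that of AAATCA, were not adjusted for the lower GC content at the summit. A match describes the letters and not a bound site.

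**Figure D5:**
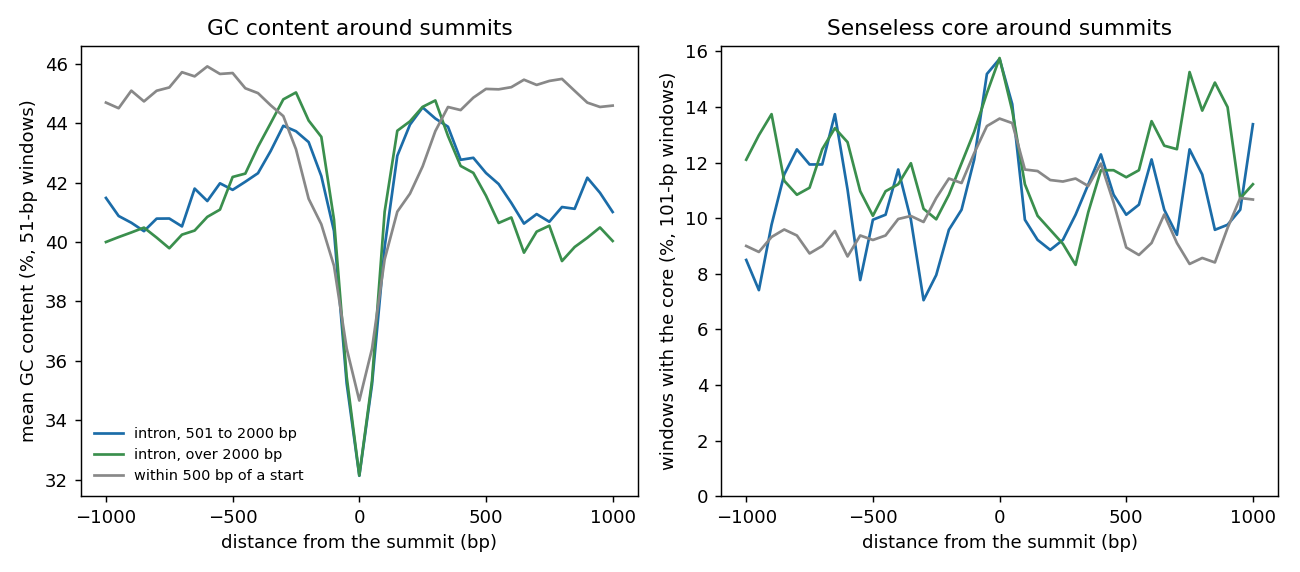
Mean GC content (%, 51-bp windows, left; axis not from 0) and share of windows (50 bp to each side) with the Senseless core (%, right) against distance from the summit (bp), for intronic summits 501 to 2000 bp from a start, intronic summits farther out and summits within 500 bp of a start. GC content falls to 32.1% at the summit in both intronic groups and 34.7% near starts; the core peaks at 15.7%, 15.8% and 13.6%.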

How the data were processed

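Binding of Senseless-GFP was measured by ChIP-seq in 1 group of 3 biological replicates of whole embryos. The 5 peak lists on dm6 were used: 30000, 30000 and 27681 peaks in replicates 1, 2 and 3, 28357 in the list of the pooled replicates and 3811 in the optimal IDR list. The authors called peaks in each replicate and on the pooled data, per the deposited text notes. The deposited signal value of each peak is a score given by the authors, on a scale that is not stated, and was used only to rank peaks within a list. Neither aligner nor peak caller is given in the sources used here. The lists hold no read counts, so depth and the precision it gives are unknown, and exact binomial (Clopper-Pearson) and Poisson 95% intervals cover the error of counting summits alone. The labels' age entry cannot be a true age, so the ages are those of the source description.

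Summits were placed on the Ensembl release 115 annotation of the same assembly, and bases that met the same rule served as the denominator. Transposable elements were not counted as genes, a choice made after seeing the data (573 summits meet the rule if they are). A replicate had a summit where it lay inside one of its 3811 strongest peaks. Tests were exact two-sided sign-flip permutation tests over 3 replicates, with the code checked on a few fixed sets of values with known answers. Correlations and shares across summits carry no test. Words were searched within 50 bp of the summit and in flanks centred 500 bp away. Python 3.11.15, numpy 2.4.6, scipy 1.17.1 and matplotlib 3.10.9 were used. The dm3 lists were not used here.

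The text names the hosts of the 20 strongest summits with the gene at the nearest start, every gene with 3 or more summits, up to 4 hosts with the strongest summits in each of 17 gene lists, summits among the strongest of no replicate, and up to 3 summits on each side of a distance limit. Members and lists were chosen with earlier results of these data known. A single list and a single window among those selected are not reported here. Of 467 listed names, 20 matched no annotated protein-coding gene.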

Additional observations from a re-analysis of the deposited data

How the results depend on the processing

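No value turned to the opposite direction under the alternatives run, though counts, shares and median ranks have no direction to turn. Of 159 values, 105 moved by less than the spread over replicates, or for counts by less than 1.5 times. These 105 include the gene list counts, which have no spread over replicates. No paired analysis was possible because the series has 1 group. With summits over 1000 bp from a start only, 292 summits met the rule, with a median rank of 1781, 83.6% in a first intron, 68.5% downstream of the nearest start, 24.7% with a summit at that start and a density ratio of 2.17. At 501 to 1500 bp the median rank was 1740, the first-intron share 86.0% and the density ratio 2.74. With protein-coding genes only, the first-intron share was 85.7%, the nearest start was a host's at 92.5%, 68.1% lay downstream and the density ratio was 2.61. With transposable elements as genes these values were 83.2%, 80.5%, 63.7% and 2.11. In the 1905 summits of highest signal, 300 met the rule, of which 95.7% were among the strongest of all 3 replicates. Their median rank was 992.5, 62.7% lay downstream, 12% had a summit at the start, as fewer summits were then available, and the density ratio was 2.81. Leaving out each replicate in turn, by keeping only peaks strong in both others, gave 388 to 417 summits, which is 70.2% to 75.4% of the 553. The median rank was then 1186.5 to 1242, the share downstream 63.2% to 64.9% and that with a summit at the start 16.0% to 17.8%. In the lists of single replicates, the first-intron share was 83.3% in replicate 2 and 82.2% in replicate 3, the share with a host's start nearest was 82.5% in replicate 3, 62.5% and 63.2% lay downstream in replicates 2 and 3, and 23.5% had a summit at the start in replicate 2. The GC difference was −8.17 and −7.92 percentage points in replicates 1 and 3, and the core difference 3.82 in replicate 2. The share found in all 3 replicates was 39.4% with the 1905 strongest peaks of each, 93.1% with 7622, 60.0% with replicate summits within 100 bp and 49.4% with reciprocal overlap of 50%. With a start window of 250 bp, 14.3% had a summit at the start. The GC difference was −6.75 with 100 bp to each side, −10.9 with flanks 300 bp away and −7.73 with only flanks whose middle and ends lay in introns. The core difference was 2.44 with 25 bp and 7.96 with 100 bp to each side. With only the strongest summit of each host, an alternative added after seeing the data like that on transposable elements, the median rank was 1623. The cause of the moves was not tested, beyond those that a shorter list or narrower window sets by its construction. The gene list counts were all the same when the gene with the nearest start also counted. The lists give no depth, and the exact sign-flip test over 3 replicates cannot give a p below 0.25.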
